A study of Mus musculus with 18 samples.

Results

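The C/EBP family was followed through sorted bone marrow progenitors of lupus-prone and C57BL/6 mice. Its 6 genes, Cebpa, Cebpb, Cebpd, Cebpe, Cebpg and Cebpz, were taken by symbol, and all 6 were present among the 19780 genes of the LSK table and the 18428 genes of the CMP table. NZBW/F1 mice are the offspring of NZB and NZW parents and develop a lupus-like disease with age. LSK cells (Lin- Sca-1+ c-Kit+), the compartment with the haematopoietic stem cells, were profiled in 12 libraries in 4 groups of 3. F1-P were female NZBW/F1 mice of 12 weeks before disease and F1-L were female NZBW/F1 mice of 28 to 36 weeks with proteinuria, while B6-Y and B6-O were C57BL/6 females of the same 2 age classes. Common myeloid progenitors (CMPs), which give rise to granulocytes, monocytes, erythroid cells and platelets, were profiled in 6 libraries, 3 of F1-L and 3 of F1-P. No group carried an engineered allele or received a treatment. Age and disease cannot be told apart between F1-L and F1-P, and no C57BL/6 CMPs were analysed here.

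C/EBP proteins bind DNA as pairs through a basic region and a leucine zipper, and the balance between members steers myeloid cells. C/EBPα is required for granulocyte and monocyte progenitors to form, C/EBPε for the late granule proteins of neutrophils and eosinophils, and C/EBPβ for granulocyte production under infection or cytokine stress. C/EBPδ takes part in acute phase and inflammatory gene expression, and C/EBPγ lacks a transactivation domain and works mainly as a partner of other leucine zipper proteins. Cebpz carries the family's symbol by its binding to the CCAAT box, but it encodes a nucleolar protein without a leucine zipper. The protein called C/EBPζ or CHOP is encoded by Ddit3, which is not a member here.

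The genes lie at separate places of the GRCm38 genome. Cebpa occupies chr7:35119293-35121928 on the plus strand and Cebpg chr7:35046422-35056573 on the minus strand, so these 2 genes are close on chromosome 7 and are read away from each other. Cebpb lies at chr2:167688915-167690418, Cebpd at chr16:15887286-15891031, Cebpe at chr14:54710360-54712174 on the minus strand and Cebpz at chr17:78919006-78937066 on the minus strand. RefSeq (GRCm38.p6) promoters were found for 3 of the 6 genes, Cebpa, Cebpb and Cebpg. The 250 bases before the start site of these genes are shown because Cebpa varied between groups while Cebpg and Cebpb, in the same LSK libraries, were called in no comparison by any tool used. Capitals mark a TATAAA box in Cebpa and the CCAAT box in Cebpg, which is read there on the other strand as ATTGG.
Cebpa (chr7:35119043-35119292, plus strand): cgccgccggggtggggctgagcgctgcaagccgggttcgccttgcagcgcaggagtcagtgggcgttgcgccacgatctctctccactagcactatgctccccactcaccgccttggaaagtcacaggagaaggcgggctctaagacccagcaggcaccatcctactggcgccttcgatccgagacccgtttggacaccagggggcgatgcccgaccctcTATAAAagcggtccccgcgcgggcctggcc
Cebpb (chr2:167688665-167688914, plus strand): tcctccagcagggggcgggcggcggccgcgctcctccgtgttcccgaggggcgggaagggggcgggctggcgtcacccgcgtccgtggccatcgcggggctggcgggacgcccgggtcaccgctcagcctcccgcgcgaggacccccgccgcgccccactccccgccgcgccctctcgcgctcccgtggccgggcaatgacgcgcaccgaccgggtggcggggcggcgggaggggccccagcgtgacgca
Cebpg (chr7:35056567-35056816, minus strand): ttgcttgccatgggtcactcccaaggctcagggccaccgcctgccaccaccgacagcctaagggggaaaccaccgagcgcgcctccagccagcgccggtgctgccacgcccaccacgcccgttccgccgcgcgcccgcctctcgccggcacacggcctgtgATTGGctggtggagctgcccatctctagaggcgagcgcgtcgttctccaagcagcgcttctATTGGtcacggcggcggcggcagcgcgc
The Cebpa stretch held 1 TATAAA that began 30 bases before the start, and the Cebpg stretch held 2 CCAAT boxes that began 89 and 28 bases before it. The motifs were searched on both strands, and CCAAT was present in 33.8% and TATAAA in 12.4% of 32851 RefSeq promoters of this length. The C/EBP palindrome TTGCGCAA (0.164% of promoters) and its looser form TTGCNNAA (9.56%), which overlap each other, were in none of the 3 stretches. The Cebpb stretch held 0 of the 4 motifs and was the richest in G and C, at 81.6% against 66.4% in Cebpa and 70.8% in Cebpg.

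Between 23772252 and 28493747 reads per library lay on genes in LSK and between 20001328 and 24761060 in CMPs. The values are CPM (reads on a gene relative to all reads of its library, on a fixed scale) that the authors also scaled by a factor per library, and the LSK and CMP tables were scaled separately. The gate markers partly followed the labels. Kit, which encodes c-Kit, was at 257 to 657 CPM in LSK and 416 to 668 CPM in CMPs. Ly6a, the Sca-1 gene, was at 35.5 to 879 CPM in LSK and 1.14 to 6.70 CPM in CMPs, although the study describes its CMP gate as Sca-1+. Although CD11b+ and Gr-1+ cells had been gated out, 11 mature neutrophil markers summed to over 5000 CPM in 5 of the 18 libraries. These were LSK B6-O 3 (10719 CPM), LSK B6-Y 2 (5441 CPM), LSK F1-L 1 (12373 CPM), CMP F1-P 2 (6453 CPM) and CMP F1-P 3 (8442 CPM), and LSK F1-L 2 followed at 4905 CPM. The other 9 LSK libraries held 301 to 4905 CPM of these markers and the other 4 CMP libraries 64.2 to 431 CPM. Plasma cell markers summed to 9453 to 36851 CPM in LSK of NZBW/F1 mice, 242 to 2464 CPM in LSK of C57BL/6 mice and 64.5 to 285 CPM in CMPs. Immunoglobulin genes, which are not in that list, took 16.8 to 25.6% of the reads on genes in F1-L and 19.2 to 36.6% in F1-P LSK. Their share was 0.301 to 4.76% in LSK of C57BL/6 mice and 0.0152 to 0.255% in CMPs. The F1-L against F1-P differences of Cebpa, Cebpd and Cebpe are given with and without the libraries rich in neutrophil markers. Counts, medians and differences of listed genes are given only with them. In sorted bulk RNA, a smaller number of expressing cells and less RNA per cell cannot be told apart.

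Per kilobase of exon, Cebpb was the most abundant member in LSK, with a median of 45.7 CPM per kb over the 12 libraries. Cebpz followed at 25.3, Cebpa at 19.6 and Cebpg at 10.1 CPM per kb, while Cebpe (4.51) and Cebpd (2.49) were the lowest. In CMPs the median of Cebpz (33.3 CPM per kb) was the highest, followed by Cebpa (18.5), Cebpg (11.7), Cebpb (7.47), Cebpe (4.63) and Cebpd (3.21). Cebpb was therefore first of the 6 in LSK, while Cebpz, Cebpa and Cebpg were above it in CMPs. Its CPM was 27.4 to 82.3 in the LSK libraries and 4.75 to 21.9 in the CMP libraries, which did not overlap, but the tables were scaled apart and no test was made across them. The members also differed in how much they varied. Across the LSK libraries the highest value was 1.37 times the lowest for Cebpg and 1.46 times for Cebpz, against 3.01 times for Cebpb, 5.27 times for Cebpa, 8.82 times for Cebpd and 39.1 times for Cebpe. The values of Cebpe rested on 28 to 1128 reads in LSK and those of Cebpd on 79 to 1015, so the spread of both was far above counting error.

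**Figure D1:**
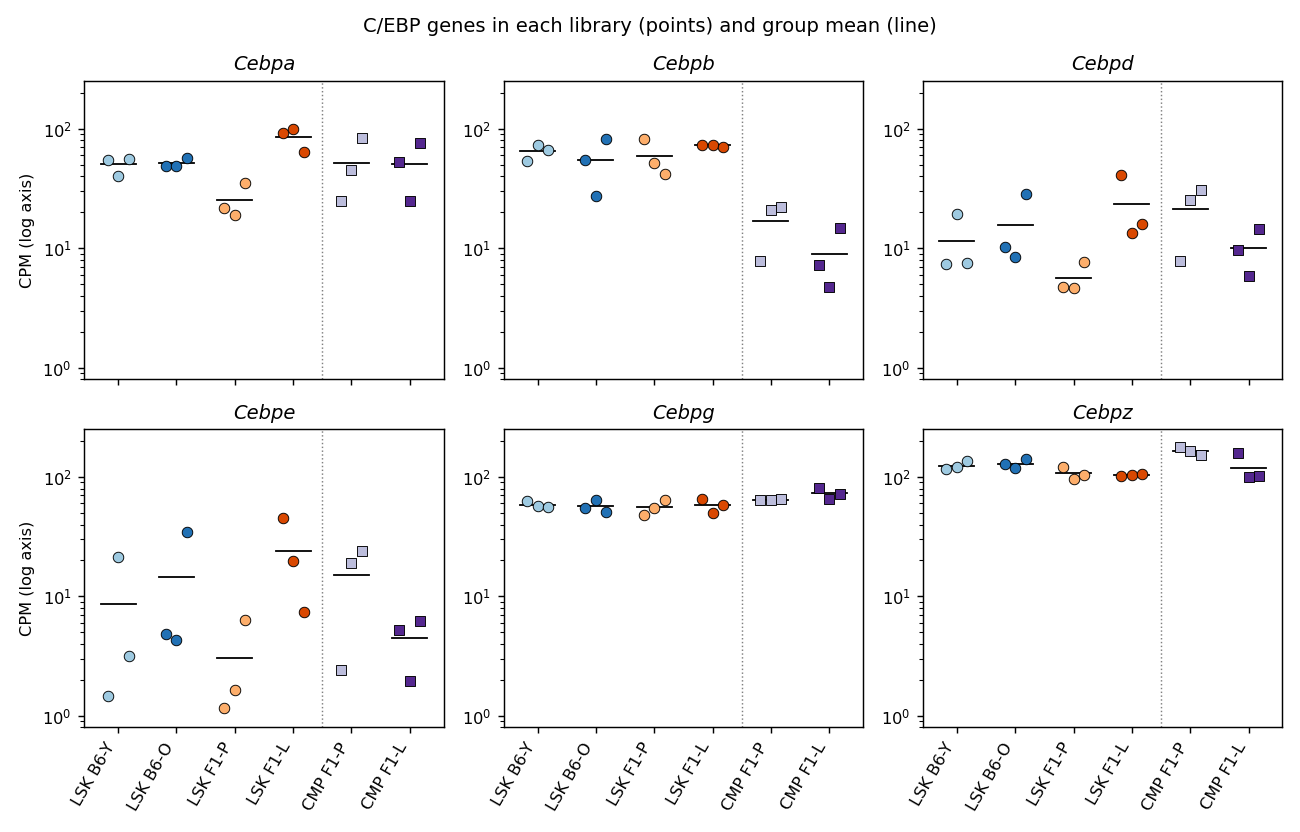
CPM (log axis) of the 6 genes in each library, with circles for LSK, squares for CMPs and a line at each group mean (n = 3). Cebpa of LSK F1-L (64.1 to 99.6 CPM) lay above and Cebpa of LSK F1-P (18.9 to 35.3 CPM) below every C57BL/6 library, while Cebpg stayed between 48.1 and 65.8 CPM in LSK.

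Cebpa, the factor that opens the granulocyte and monocyte path, had levels in LSK that did not overlap between F1-P, C57BL/6 and F1-L. It was at 21.7, 18.9 and 35.3 CPM in F1-P replicates 1 to 3 and at 91.8, 99.6 and 64.1 CPM in F1-L. It was at 54.8, 39.8 and 55.9 CPM in B6-Y and at 48.7, 48.6 and 57.1 CPM in B6-O. Every F1-P library lay below every C57BL/6 library, and every F1-L library above them. Groups that did not overlap were common between strains, at 37.4% of genes in F1-L against B6-O. The share of genes with this order of groups was not counted. The group means, in rising order, were 25.3 ± 8.79 CPM (SD, n = 3) in F1-P, 50.2 ± 9.03 CPM in B6-Y, 51.4 ± 4.88 CPM in B6-O and 85.2 ± 18.6 CPM in F1-L. The neighbours B6-Y and B6-O did not differ beyond their spread.

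The first comparison asked how Cebpa differed between prediseased and diseased mice. The mean of F1-L LSK was 3.37 times that of F1-P, a log2 difference of 1.74 (SE 0.26) on the scale of log2(CPM + 1). In limma its unadjusted p was 0.000284, rank 23 of 14332 genes tested, and its adjusted p was 0.172, so it did not pass the threshold of 0.05. That threshold, with a fold change above 1.5, was passed by 0.0279% of genes and by 0 of the 6 members. At an unadjusted p below 0.05, 3 of the 6 members (Cebpa, Cebpd and Cebpe) were higher in F1-L, where 8.58% of all genes were higher. These 3 were also the members with every F1-L library above every F1-P library, as in 10.4% of genes. The call depended on the test. edgeR's likelihood ratio test, which the study used, gave adjusted p = 2.9e-06 for Cebpa and called 3 members, all higher in F1-L (3.45% of genes). DESeq2 gave adjusted p = 5.11e-07 and called the same 3 members (3.77% of genes). edgeR's quasi-likelihood test gave adjusted p = 0.163 and called 0 (0.0209% of genes). With all 12 LSK libraries in one limma fit the adjusted p was 0.0161, and without F1-P replicate 3 it was 0.0461. Without libraries above 5000 CPM of neutrophil markers the log2 difference of Cebpa was 1.67, and without those above 3000 CPM, which leaves F1-L replicate 3 alone against F1-P and takes the spread from F1-P, it was 1.36. The single F1-L library left, at 64.1 CPM of Cebpa and 1983 CPM of neutrophil markers, was still above all 3 F1-P libraries. Other markers moved with Cebpa here. Of 10 monocyte or macrophage markers, 7 were higher in F1-L at an unadjusted p below 0.05 (median 1.59, sums of 1037 to 2214 CPM against 500 to 1049 CPM). Within these sums, Lyz2 was at 334 to 1530 CPM in F1-L and at 88.3 to 200 CPM in F1-P. Ly6c2, the 1 marker of this list with a negative difference, was at 234 to 405 CPM against 330 to 663 CPM. Of 7 stem cell markers 4 were higher at that p (median 0.68, 393 to 664 CPM against 297 to 428 CPM). Of 6 plasma cell markers 3 were lower (median -0.93), where 4.19% of all genes were lower at that p. Their sums were 9453 to 12532 CPM in F1-L and 14296 to 36851 CPM in F1-P. Of 7 B cell progenitor markers 5 were lower (median -1.48, sums of 147 to 192 CPM against 283 to 447 CPM). The median of the B cell progenitor markers in B6-O against B6-Y was -2.51. The part of these cells in the Cebpa difference between F1-L and F1-P was not tested.

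The same age step in C57BL/6 mice gave a log2 difference of 0.05 (SE 0.18) for Cebpa, with overlapping groups and adjusted p = 0.949 in limma. None of the 6 members passed the limma threshold there or reached an unadjusted p below 0.05, as against 0% and 6.62% of 14005 genes. All 6 had overlapping groups, where 11.3% of genes had not. edgeR's quasi-likelihood test (0% of genes called), its likelihood ratio test (0.814%) and DESeq2 (1.48%) also called 0 members. The difference between the age steps of the strains was 1.69 (SE 0.333) for Cebpa, which ranked 8 of 15084 genes by its unadjusted p of 0.000308. Its adjusted p in limma was 0.533, and no gene passed (0%). Cebpa was the 1 member of 6 at an unadjusted p below 0.05, where 3.92% of genes were. edgeR's likelihood ratio test (adjusted p = 0.00904) and DESeq2 (adjusted p = 0.00593) called Cebpa, as they called 0.0663% and 0.192% of genes, and the quasi-likelihood test did not (adjusted p = 0.845, 0% of genes called). The value was 1.86 without libraries above 5000 CPM of neutrophil markers and 1.54 without those above 3000 CPM.

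Between strains of the same age class, Cebpa of F1-P LSK was lower than in B6-Y and passed the limma threshold. Its log2 difference was -0.99 (SE 0.25, adjusted p = 0.0306), and it was the only 1 of 6 members called, where 16.2% of 14380 genes were called and 6.18% were called lower. The call held in limma without libraries above 5000 CPM of neutrophil markers, at -1.15 with adjusted p = 0.0256, and in edgeR's quasi-likelihood test (adjusted p = 0.0372, 15.9% of genes called), its likelihood ratio test (0.00514, 19.1%) and DESeq2 (0.00315, 19.6%). Leaving out 1 library ended it in 4 of 6 cases, with adjusted p = 0.11 without B6-Y replicate 1, 0.0905 without B6-Y replicate 3, 0.0735 without F1-P replicate 1 and 0.122 without F1-P replicate 2, although the difference stayed between -1.25 and -0.82. Markers of other cells moved with it. Plasma cell markers summed to 14296 to 36851 CPM in F1-P against 732 to 1886 CPM in B6-Y, stem cell markers to 297 to 428 CPM against 550 to 691 CPM, and Kit was at 257 to 373 CPM against 410 to 481 CPM. Scaling to the reads outside immunoglobulin genes left the difference at -1.02, and the part of these cells in it was not tested. Between the older groups, Cebpa was 1.66 times higher in F1-L than in B6-O, a log2 difference of 0.70 (SE 0.187) with groups that did not overlap and adjusted p = 0.0563. It passed with median of ratios scaling (adjusted p = 0.0455), with scaling outside immunoglobulin genes (0.0434), in edgeR's likelihood ratio test (0.0208, 15.2% of genes called), in DESeq2 (0.00514, 15.9%) and in limma without B6-O replicate 3 (0.0384) or F1-L replicate 3 (0.0448). Without libraries above 3000 CPM of neutrophil markers the difference was 0.39 (adjusted p = 0.123), with a single F1-L library. Plasma cell markers summed to 9453 to 12532 CPM in F1-L and 242 to 2464 CPM in B6-O (5 of 6 called higher), monocyte or macrophage markers to 1037 to 2214 CPM and 272 to 1361 CPM (4 of 10 called higher), and stem cell markers to 393 to 664 CPM and 692 to 919 CPM (2 of 7 called lower), and their part in it was not tested. edgeR's quasi-likelihood test did not call it (adjusted p = 0.0537, 10.8% of genes called). In this comparison 0 of 6 members passed the limma threshold, against 11.6% of genes, and 2 of 6 had groups that did not overlap, against 37.4% of genes.

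**Figure D2:**
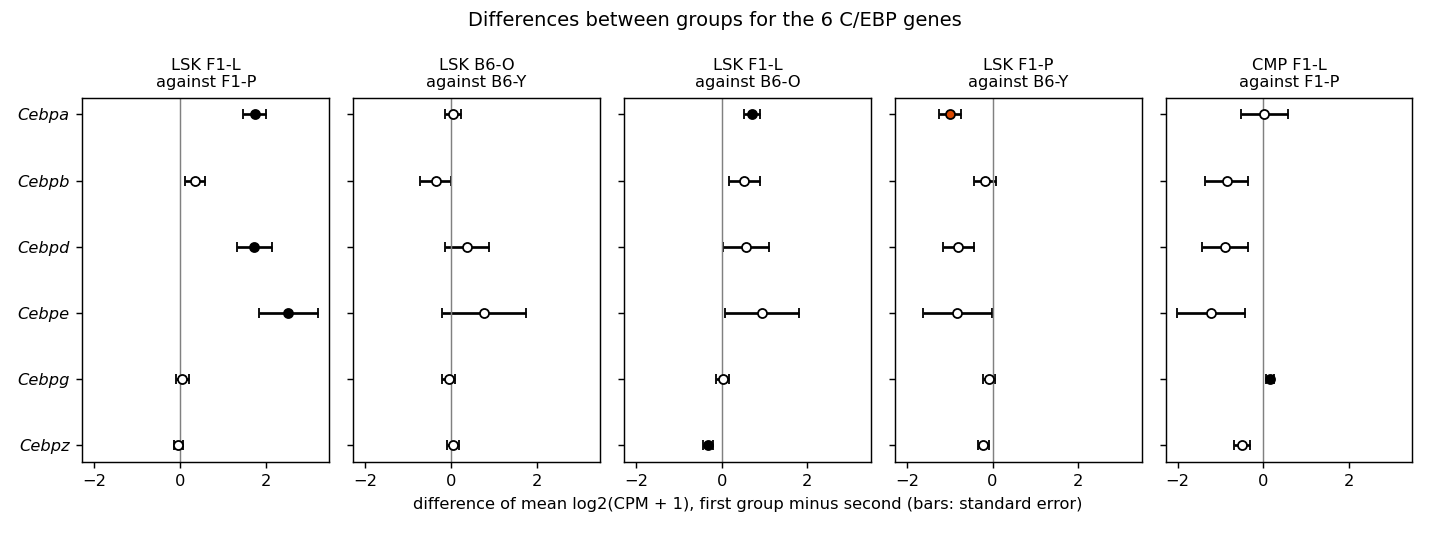
Difference of mean log2(CPM + 1) with its standard error for the 6 genes in 5 comparisons of 3 against 3 libraries. Filled points mark groups that did not overlap and the orange point the 1 difference past the limma threshold, Cebpa of F1-P against B6-Y at -0.99.

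The log2 ratio of Cebpa to Cebpg within a library was taken on CPM + 1. It was -1.11, -1.5 and -0.84 in F1-P and 0.48, 0.99 and 0.14 in F1-L LSK. In CPM, which are not corrected for exon length, Cebpa was below Cebpg in all F1-P libraries and above it in all F1-L libraries. Per kilobase of exon, F1-P replicate 3 had more Cebpa (13.4 CPM per kb) than Cebpg (11.4 CPM per kb). The difference was 1.69 between means of 0.54 ± 0.43 and -1.15 ± 0.34 (SD, n = 3), with p = 0.1 in a two-sided exact permutation test, the smallest p that this design can give. With no pseudocount, where scaling has no effect on a ratio, the difference was 1.73 and the groups did not overlap either. In C57BL/6 LSK the ratio was -0.39 to 0.15 in B6-O and -0.51 to -0.01 in B6-Y, a difference of 0.10 (exact permutation p = 0.7). In CMPs it was -1.38 to 0.07 in F1-L and -1.35 to 0.34 in F1-P, which overlapped (exact permutation p = 0.7). As a share of the summed CPM per kb of the family, Cebpa made up 11.4 ± 4.32% (SD, n = 3) in F1-P LSK, 17.8 ± 4.87% in B6-Y, 18.8 ± 4.45% in B6-O and 23.4 ± 3.68% in F1-L.

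**Figure D3:**
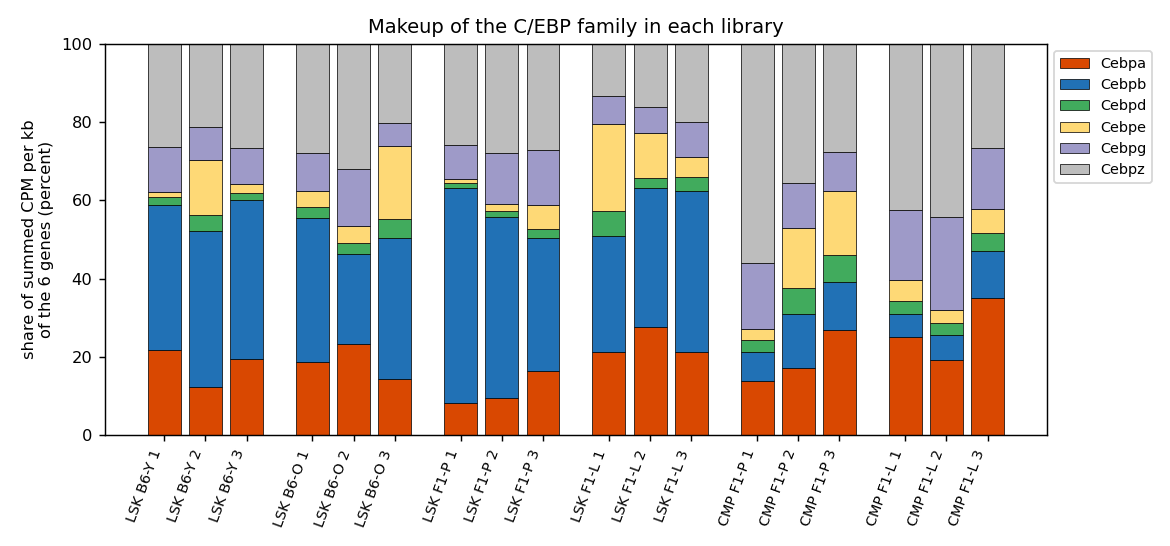
Share (percent) of each gene in the summed CPM per kb of the 6 genes, 1 bar per library. Cebpa was 8.27 to 16.3% of the family in LSK F1-P and 21.2 to 27.6% in LSK F1-L, and Cebpb took a smaller share in CMPs (6.00 to 13.8%) than in LSK (23.0 to 55.0%).

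Cebpe, the regulator of the late granule proteins, was the most variable member. It was at 1.15, 1.63 and 6.32 CPM in F1-P LSK and at 45.2, 19.6 and 7.37 CPM in F1-L LSK. The lowest F1-L library was just above the highest F1-P library. In C57BL/6 it was at 1.46, 21.3 and 3.17 CPM in B6-Y and at 4.89, 4.36 and 34.7 CPM in B6-O, where 1 library of each group stood apart and the groups overlapped. F1-L exceeded F1-P by 2.53 on the log2 scale (SE 0.69, unadjusted p = 0.00802, adjusted p = 0.21 in limma). edgeR's likelihood ratio test (adjusted p = 0.0143) and DESeq2 (adjusted p = 0.0443) called it and the quasi-likelihood test (adjusted p = 0.212) did not. B6-O and B6-Y differed by 0.77 (SE 0.974), F1-L and B6-O by 0.94 (SE 0.867) and F1-P and B6-Y by -0.82 (SE 0.803), none beyond the spread of the libraries. The last of these was 0.11 without B6-Y replicate 2, the library of that group rich in neutrophil markers.

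Cebpd, linked to acute phase and inflammatory gene expression, followed the same libraries at a smaller range. It was at 4.70, 4.61 and 7.58 CPM in F1-P LSK and at 40.7, 13.3 and 15.8 CPM in F1-L LSK. These groups did not overlap. It was at 7.31, 19.2 and 7.57 CPM in B6-Y and at 10.2, 8.43 and 28.3 CPM in B6-O, which overlapped. F1-L exceeded F1-P by 1.73 on the log2 scale (SE 0.411, unadjusted p = 0.00401, adjusted p = 0.19 in limma), with adjusted p = 0.00222 in edgeR's likelihood ratio test, 0.000421 in DESeq2 and 0.17 in the quasi-likelihood test. The other LSK differences were 0.37 (SE 0.51) for B6-O and B6-Y, 0.56 (SE 0.543) for F1-L and B6-O and -0.80 (SE 0.367, adjusted p = 0.185 in limma) for F1-P and B6-Y.

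The levels of Cebpe and Cebpd moved with mature neutrophil markers. The 3 LSK libraries with the most marker RNA, F1-L 1, B6-O 3 and B6-Y 2, were in this order the 3 highest for Cebpe (45.2, 34.7 and 21.3 CPM) and for Cebpd (40.7, 28.3 and 19.2 CPM). At the other end, F1-P 1 had the least marker RNA (301 CPM) and the least Cebpe (1.15 CPM). All 11 neutrophil markers were higher in F1-L than in F1-P LSK at an unadjusted p below 0.05, with a median log2 difference of 3.00 against -0.01 over all genes, and 0 of them passed the adjusted threshold. The sums were 1983 to 12373 CPM in F1-L and 301 to 1281 CPM in F1-P, and Ltf, a defining secondary granule gene, was at 238 to 1937 CPM against 46.9 to 169 CPM. Without libraries above 5000 and above 3000 CPM of these markers, F1-L and F1-P differed by 1.92 and 1.27 in Cebpe and by 1.25 and 1.37 in Cebpd, with limma adjusted p of at least 0.151 for each. The part of mature neutrophils in these differences was not tested. Of eosinophil markers, Epx was at 105 CPM in F1-L 1 and 37.1 CPM in F1-P 3, and at 0.280 to 35.8 CPM in the other LSK libraries.

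**Figure D4:**
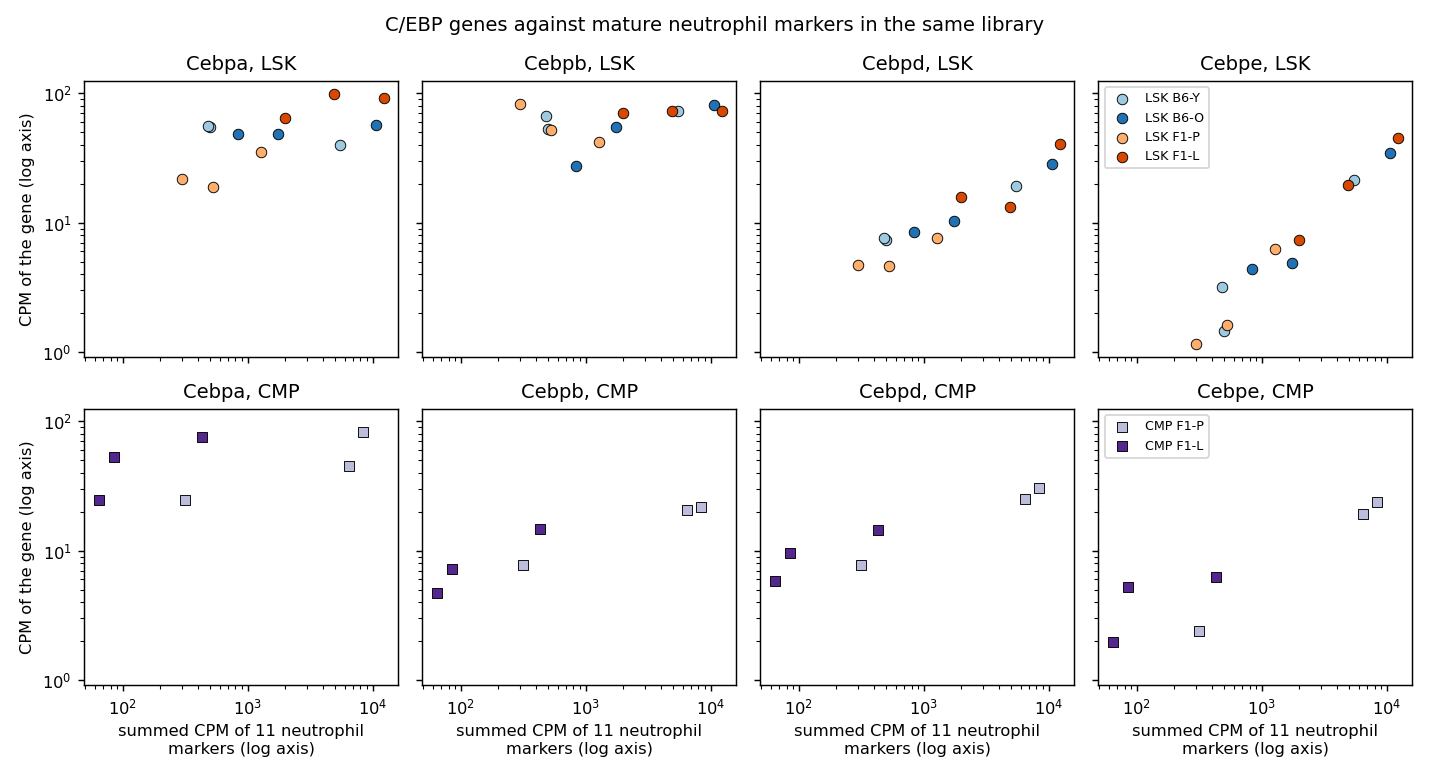
CPM of Cebpa, Cebpb, Cebpd and Cebpe (log axis) against the summed CPM of 11 mature neutrophil markers (log axis) in the same library, 12 LSK libraries above and 6 CMP libraries below. Cebpe and Cebpd were highest where the markers were highest, while Cebpb of LSK was at 82.3 CPM in the library with the fewest markers (301 CPM) and at 72.8 CPM in the library with the most (12373 CPM).

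Cebpb, the member tied to emergency granulopoiesis, did not separate the LSK groups. It was at 82.3, 51.9 and 41.9 CPM in F1-P, 72.8, 73.1 and 70.8 CPM in F1-L, 53.5, 72.9 and 66.8 CPM in B6-Y and 54.9, 27.4 and 81.5 CPM in B6-O. The ranges overlapped in each of the 4 comparisons, and the F1-L libraries lay closest together. The log2 difference was 0.35 (SE 0.228, adjusted p = 0.588 in limma) between F1-L and F1-P, -0.35 (SE 0.364) between B6-O and B6-Y, 0.53 (SE 0.353) between F1-L and B6-O and -0.18 (SE 0.247) between F1-P and B6-Y. Tmem189, on the other strand, shares 20.7% of the exon bases of Cebpb, and Spidr shares 15.0% of those of Cebpd. The kit did not keep strand, so reads of these stretches cannot be assigned to either gene.

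Cebpg, the partner without a transactivation domain, was the steadiest member. Its LSK group means were 55.8 ± 7.90 CPM (SD, n = 3) in F1-P, 57.8 ± 8.12 CPM in F1-L, 58.8 ± 3.49 CPM in B6-Y and 56.7 ± 6.68 CPM in B6-O. Its log2 differences lay between -0.08 and 0.05 in the 4 LSK comparisons, with SE up to 0.155, and all of its groups overlapped. Cebpz was at 97.0 to 120.2 CPM in F1-P, 101 to 106 CPM in F1-L, 117 to 135 CPM in B6-Y and 118 to 141 CPM in B6-O. Every F1-L library was below every B6-O library, a log2 difference of -0.32 (SE 0.118, unadjusted p = 0.0307, adjusted p = 0.135 in limma), and the other LSK comparisons overlapped.

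In CMPs Cebpa did not separate the groups. It was at 52.5, 24.7 and 75.6 CPM in F1-L and at 24.7, 45.1 and 83.2 CPM in F1-P. The groups covered nearly the same range and their means were 50.9 ± 25.5 and 51.0 ± 29.7 CPM (SD, n = 3), a log2 difference of 0.03 (SE 0.542). None of the 6 members passed the limma threshold, which 0.00774% of 12926 genes did. edgeR's quasi-likelihood test (0.00774% of genes called), its likelihood ratio test (2.38%) and DESeq2 (2.72%) also called 0 members. At an unadjusted p below 0.05 there was 1 member, Cebpz, which was lower in F1-L, among 9.8% of genes (4.55% higher and 5.25% lower).

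The other bZIP members with a granulocyte role were at lower mean levels in F1-L CMPs, within the spread of the libraries. Cebpe was at 5.27, 1.96 and 6.22 CPM in F1-L and at 2.40, 19.1 and 24.0 CPM in F1-P. Cebpd was at 9.64, 5.88 and 14.4 CPM in F1-L and at 7.78, 25.2 and 30.6 CPM in F1-P. Cebpb was at 7.18, 4.75 and 14.7 CPM in F1-L and at 7.73, 20.8 and 21.9 CPM in F1-P. For all 3 genes, F1-P replicate 1 lay among the F1-L libraries while F1-P replicates 2 and 3 lay above them. The log2 differences were -1.22 (SE 0.798) for Cebpe, -0.90 (SE 0.541) for Cebpd and -0.85 (SE 0.506) for Cebpb, with limma adjusted p of 0.644, 0.626 and 0.62. F1-P replicates 2 and 3 were also the CMP libraries with 6453 and 8442 CPM of neutrophil markers, against 315 CPM in F1-P replicate 1 and 64.2 to 431 CPM in F1-L, and Ltf was at 1015 and 1424 CPM in them against 9.14 to 62.2 CPM in the other 4 libraries. All 11 neutrophil markers were lower in F1-L CMPs at an unadjusted p below 0.05, with a median of -4.21 against 0.04 over all genes. F1-P replicates 2 and 3 also had the highest monocyte or macrophage marker sums (1485 and 2035 CPM against 203 to 598 CPM). Their eosinophil marker sums were 297 and 137 CPM against 18.5 to 86.2 CPM. Their B cell progenitor marker sums were 155 and 156 CPM against 11.4 to 50.0 CPM. All 10 monocyte or macrophage markers had a negative difference, and 2 of them an unadjusted p below 0.05 in limma, where 5.25% of all genes were lower. Lyz2, in that list, was at 63.1 to 1295 CPM in F1-P and at 34.8 to 93.4 CPM in F1-L. The part of any of these cells in the differences was not tested. Without these 2 libraries the differences were 0.59 for Cebpe, 0.25 for Cebpd and 0.05 for Cebpb, so the sign changed for each, and that for Cebpa was 0.88, all with a single F1-P library, whose spread was assumed to be that of F1-L, and limma adjusted p of at least 0.878. Gata1, the erythroid factor, was at 101 to 277 CPM in CMPs and 6.19 to 22.5 CPM in LSK.

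Cebpg of CMPs was at 80.3, 65.9 and 72.0 CPM in F1-L and at 64.4, 64.3 and 65.3 CPM in F1-P. All F1-L libraries were above all F1-P libraries, as in 16% of genes, but the difference of 0.16 (SE 0.0964) had an adjusted p of 0.621 in limma. Cebpz was at 157, 101 and 102 CPM in F1-L and at 178, 166 and 152 CPM in F1-P. F1-L replicate 1 overlapped the F1-P libraries, and the difference was -0.49 (SE 0.186, unadjusted p = 0.0369, adjusted p = 0.486 in limma). The log2 ratio of Cebpe to Cebpa in CMPs, on CPM + 1, differed by -1.25 between F1-L and F1-P (two-sided exact permutation p = 0.1). With no pseudocount it was -3.66 to -3.32 in F1-L and -3.36 to -1.24 in F1-P, which overlapped (difference -1.39, exact permutation p = 0.2). Without the 2 libraries rich in neutrophil markers the difference was -0.29 on CPM + 1. In LSK the same ratio differed by 0.79 between F1-L and F1-P (exact permutation p = 0.4), which became -0.086 without libraries above 3000 CPM of neutrophil markers, and by 0.72 between B6-O and B6-Y (exact permutation p = 0.5).

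The step from F1-P to F1-L was then compared between LSK and CMPs, each within its own table. The LSK difference exceeded the CMP difference by 2.63 in Cebpd and 3.75 in Cebpe on the log2 scale, with p = 0.02 and p = 0.025 in a two-sided exact permutation test over 400 arrangements. The excess was 1.71 in Cebpa (p = 0.11), 1.2 in Cebpb (p = 0.115), 0.44 in Cebpz (p = 0.22) and -0.11 in Cebpg (p = 0.535), each from the exact permutation test. These were 6 tests, and their p-values are not adjusted. With same-numbered replicates as pairs, p was 0.0625 for Cebpd and 0.0938 for Cebpe in the exact permutation test, so neither passed 0.05. Whether the numbers pair the samples is not known. Leaving out 1 library moved 3 members across 0.05. Cebpe went to p = 0.055 without CMP F1-P replicate 3, Cebpb to p = 0.04 without LSK F1-P replicate 1, and Cebpa to p = 0.05 without CMP F1-L replicate 3 and p = 0.045 without CMP F1-P replicate 1, all from the exact permutation test. With libraries above 5000 CPM of neutrophil markers left out, the excess was 1.01 in Cebpd (exact permutation p = 0.25) and 1.33 in Cebpe (p = 0.4). The labels do not say whether LSK and CMPs came from the same mice, and nothing in them says that the replicates of a group were separate animals, so p-values measure only the spread between these samples, which may be technical.

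Genes with roles around the family were counted from lists. Of 7 relatives and regulators, 0 passed in F1-L against F1-P LSK, 1 was lower at an unadjusted p below 0.05 (4.19% of all genes were) and the median difference was 0.26, against -0.01 over all genes. That gene was Trib1, an adaptor that sends C/EBPα to degradation, at 129, 133 and 169 CPM in F1-L and at 171, 388 and 200 CPM in F1-P. Every F1-L library was below every F1-P library (log2 difference -0.72, adjusted p = 0.38 in limma). The share of genes lower without overlap is not given here. Trib1 was highest in F1-P replicate 2, the library with the most plasma cell marker RNA (36851 CPM). The part of plasma cells in the Trib1 levels was not tested. Both NZBW/F1 groups had more Trib1 than their C57BL/6 counterparts, by 1.65 in F1-L against B6-O (adjusted p = 0.0428) and by 1.56 in F1-P against B6-Y (adjusted p = 0.0151), which passed in limma. The first call was lost without F1-L replicate 1 (adjusted p = 0.137), 2 (0.12) or 3 (0.153) or B6-O replicate 1 (0.0926), by edgeR's quasi-likelihood test (0.0603) and with a filter on a mean of 5 CPM (0.0533). The second was lost without B6-Y replicate 1 (0.0602) or 3 (0.063). In CMPs Trib1 was at 10.05, 5.11 and 22.0 CPM in F1-L and at 24.3, 97.5 and 112 CPM in F1-P (-2.50, adjusted p = 0.402 in limma). Its highest CMP values were in F1-P replicates 2 and 3, the CMP libraries rich in neutrophil markers. Ddit3, which encodes CHOP, differed by -0.30 in LSK and -0.53 in CMPs between F1-L and F1-P, with neither past the threshold.

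Of 12 partner and upstream factors, 0 passed and 4 were higher in F1-L than F1-P LSK at an unadjusted p below 0.05, where 8.58% of all genes were, with a median of 0.14. These were Gata2 (1.48, adjusted p = 0.177 in limma), a factor of stem, mast and megakaryocyte cells, its cofactor gene Zfpm1 (0.84), Spi1 (0.75), which encodes PU.1, and Stat3 (0.41). In F1-P against B6-Y, 5 of the 12 passed in limma, where 16.2% of all genes did. Spi1 (-0.93), Irf8 (-0.82) and Gata2 (-0.99) were lower in F1-P, as was Cebpa, and Id2 (1.45) and Klf4 (0.93) were higher. Spi1, Id2 and Irf8 passed with any 1 library left out, and Irf8 was lost with all LSK groups fitted together (adjusted p = 0.25). Gata2 was lost without B6-Y replicate 1 (adjusted p = 0.0717), B6-Y replicate 3 (0.0611) or F1-P replicate 2 (0.0718). Klf4 was lost without B6-Y replicate 1 (0.123) or 3 (0.116) or F1-P replicate 1 (0.0878), 2 (0.153) or 3 (0.111), with all LSK groups fitted together (0.252), by edgeR's quasi-likelihood test (0.0709) and with a filter on a mean of 5 CPM (0.0531). Of 5 growth factor receptors with known C/EBP sites, 0 passed and 3 were higher in F1-L than F1-P LSK at an unadjusted p below 0.05, with a median of 0.90, and Csf3r, the G-CSF receptor gene, differed by 1.10 (adjusted p = 0.234). In CMPs 0 of the 5 did so and the median was -0.55.

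Granule genes, among them textbook targets of C/EBPα and C/EBPε, were split by stage. Of 6 primary granule genes, 3 were higher in F1-L than F1-P LSK at an unadjusted p below 0.05 (median 1.89), as were 8.58% of all genes, and of 7 tested secondary granule and late neutrophil genes 6 were (median 3.12), with 0 past the adjusted threshold in either list. In CMPs the medians were -0.21 for the primary and -4.21 for the secondary granule genes, with 0 and 6 lower at an unadjusted p below 0.05, as were 5.25% of all genes. The secondary granule list shares Ltf, Camp, Ngp, Lcn2, Mmp8 and Mmp9 with the neutrophil markers above. Of 6 tested acute phase and inflammatory targets, 2 were higher in F1-L LSK (median 0.62) and 5 lower in F1-L CMPs (median -2.23) at an unadjusted p below 0.05. Lcn2, also a neutrophil marker above, is in this list too. The part of mature neutrophils in the counts of these lists was not tested. Of 4 lipid and metabolic targets, Apoe passed in LSK, at 1.34 with adjusted p = 0.0496 in limma, and 0 of 2 tested did in CMPs. The Apoe call was lost with median of ratios scaling (adjusted p = 0.0646), with the replicate block (0.221), with all LSK groups fitted together (0.0636) and without F1-L replicate 1 (0.0679), 2 (0.115) or 3 (0.147) or F1-P replicate 2 (0.314). Apoe was also lower in F1-L than in B6-O (-2.05) and in F1-P than in B6-Y (-2.48), which passed, and B6-O lay above B6-Y by 0.91 without overlap (adjusted p = 0.567 in limma).

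The genes whose profile over the libraries was nearest to that of a member were found by the root mean square difference of centred log2(CPM + 1) values, among genes with a mean of at least 5 CPM. Over the 12 LSK libraries they were Irak3, Slc18a2, C1rl, Ptgs1 and Cdc42ep4 for Cebpa, at distances of 0.30 to 0.34 where Cebpa itself varied by 0.67. For Cebpe (0.27 to 0.34, own spread 1.46) they were Clec4a2, Mcemp1, Wfdc21, Lrg1 and Lyz2, and for Cebpd (0.20 to 0.31, own spread 0.86) Slc16a3, Mgst1, Gsr, Clec4d and Ltb4r1. For Cebpb (0.23 to 0.25, own spread 0.43) they were Nfil3, Plk3, Spp1, Btg1 and Klf13. Over the 6 CMP libraries Cebpd was among the 5 genes nearest to Cebpb (0.18). The nearest to Cebpa there were Hpse, Nrg1, Adssl1, Plac8 and Aldh1b1 (0.10 to 0.12), to Cebpd Dok3, Jdp2, Cfp, Ptpro and Fcer1g (0.05 to 0.11), and to Cebpe Padi4, Pi16, Ltb4r1, Fam129a and Sntb2 (0.10 to 0.14). Ltb4r1 was among the 5 nearest to Cebpd in LSK and to Cebpe in CMPs, and 0 of the 5 genes nearest to Cebpa in LSK were among the 5 in CMPs.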

How the data were processed

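RNA of sorted bone marrow cells from female mice was sequenced in 18 libraries, 12 of LSK and 6 of CMPs, 3 per group. Per the labels and the study's methods, the authors isolated RNA with a low-input column kit, prepared TruSeq libraries without strand information, sequenced single reads of 75 bases, aligned them with STAR 2.6 to mm10 (GRCm38) and counted reads per gene with HTSeq, whose version is not given in the sources used here. The deposited values are a signal, CPM that the authors scaled by a factor per library, and not plain CPM as the planned design had assumed. The test for CPM was kept. All deposited values (100%) came out as whole reads, within 0.05 of a read, once divided by the value of 1 read in their library.

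Deposited values were tested as log2(CPM + 1) with limma 3.58.1 in R 4.3.3, with an intensity trend, within each table and with only the groups compared (all 4 LSK groups for the difference between strains). Genes needed at least 1 CPM in 3 samples, which all 6 members met in every comparison. A gene was called at a Benjamini-Hochberg adjusted p of at most 0.05, over all genes tested, and a fold change above 1.5. Fold changes understate changes of low genes because of the pseudocount of 1. Recovered reads were tested with edgeR 4.0.16 (quasi-likelihood and likelihood ratio tests) and DESeq2 1.42.0. Differences of effects between LSK and CMPs, and ratios, used two-sided exact permutation tests (Python 3.11.15, numpy 2.4.6, pandas 2.3.3), and figures were drawn with matplotlib 3.10.9. The limma script was also run on simulated counts, in which the libraries of a group had the same expected makeup. The outcome is not given here. Gene positions came from GENCODE M21, which matched 19770 of 19780 LSK and 18421 of 18428 CMP genes by identifier. No pair of replicates agreed within sampling noise (chi-square per degree of freedom of 10.9 or more).

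The members and gene lists were chosen with earlier results of these data known. Named genes are the members, list genes that were called or, failing that, up to 4 with the largest difference and a mean of 5 CPM or more, and the 5 nearest profiles, of which those nearest to Cebpb in CMPs are not reported here in full. Kit, Ly6a, Ltf, Epx, Gata1 and Ddit3 were added after values were seen, as were the limits of 5000 and 3000 CPM of neutrophil markers and the ratios with no pseudocount. Alternatives covered the pseudocount, the filter, scaling, the replicate block, the test, the fold minimum, the samples in the fit and leaving out each library.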

Additional observations from a re-analysis of the deposited data

Results flagged for a closer look

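The step from the younger to the older group differed between NZBW/F1 and C57BL/6 LSK by 1.69 on the log2 scale for Cebpa, the master factor of granulocyte and monocyte progenitors, by a test of the difference itself. Its unadjusted p in limma was 0.000308 and its adjusted p 0.533, so it did not pass over all genes.

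The step from F1-P to F1-L differed between LSK and CMPs by 2.63 for Cebpd (exact permutation p = 0.02) and by 3.75 for Cebpe (exact permutation p = 0.025), again by a test of the difference itself. With same-numbered replicates as pairs, p was 0.0625 and 0.0938 (exact permutation test). These were, with libraries above 5000 CPM of neutrophil markers left out, 1.01 (exact permutation p = 0.25) and 1.33 (exact permutation p = 0.4).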

How the results depend on the processing

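Over the 13 results that answer a comparison, 184 of 215 alternatives left the count of members or the sign of the ratio as it was. Over the 42 values of single genes, 787 of 858 left the sign as it was and also whether the threshold was passed. Changes of size alone were not counted. Without libraries above 5000 CPM of neutrophil markers, the ratio of Cebpe to Cebpa differed by -0.29 in place of -1.25 in CMPs. In LSK it was then 0.25 in place of 0.79 in F1-L against F1-P, and 1.00 in place of 0.72 in C57BL/6. All 3 of these were counted as unchanged. The cause of the changes was not tested. In F1-L against F1-P LSK, 3 members were called by edgeR's likelihood ratio test and 3 by DESeq2, and 1 where all 12 LSK libraries shared a fit, against 0 in limma (0 to 1 with each library left out). In F1-L against B6-O, 1 member was called with median of ratios scaling, 1 with scaling without immunoglobulin genes, 1 by the likelihood ratio test and 1 by DESeq2, against 0 (0 to 1 with each library left out). In F1-P against B6-Y the count was 0 to 1 with each library left out, and for the difference between strains it was 1 by the likelihood ratio test and 1 by DESeq2, against 0.

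The count of members whose effect differed between LSK and CMPs was 2, and 0 with the replicate block, 0 without libraries above 5000 CPM and 0 without those above 3000 CPM of neutrophil markers (1 to 3 with each library left out). At the 3000 CPM limit 16 arrangements were left, so p could not go below 0.0625 and that count of 0 says nothing. The labels do not say whether the replicate numbers pair the samples. Correlations of same-numbered samples ran from -0.454 to 0.622, which does not settle it. The block changed genes called from 4 to 0 in F1-L against F1-P LSK, from 1667 to 1380 in F1-L against B6-O, from 2331 to 2787 in F1-P against B6-Y and from 1 to 0 in CMPs, and left the limma calls of members as they were.

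Counts of all genes called moved more between tools. They were 4 in limma, 3 by quasi-likelihood, 657 by likelihood ratio and 734 by DESeq2 in F1-L against F1-P LSK (26 where all 12 LSK libraries shared a fit), and 1, 1, 308 and 351 in CMPs. In C57BL/6 they were 0, 0, 114 and 207 (13 in the shared fit), and for the difference between strains 0, 0, 10 and 29. A filter on a mean of 5 CPM gave 978 in place of 1667 in F1-L against B6-O.

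Signs turned where differences were small or rested on few libraries, and values in brackets are the range with each library left out. Without libraries above 5000 or 3000 CPM of neutrophil markers, the ratio of Cebpa to Cebpg was -0.175 in C57BL/6 (-0.039 to 0.233) and 0.708 in CMPs (-0.558 to 0.287), Cebpa was -0.184 in C57BL/6 (-0.109 to 0.132) and Cebpz was -0.028 there (-0.011 to 0.116). In CMPs Cebpb was then 0.051, Cebpd 0.247 and Cebpe 0.59, and Cebpe of F1-P against B6-Y was 0.114 (-1.48 to 0.114). The ratio of Cebpe to Cebpa was -0.086 in LSK F1-L against F1-P without libraries above 3000 CPM (0.253 to 1.23), and in C57BL/6 it ran from -0.093 to 1.81 with each library left out. Cebpa of CMPs was -0.041 by quasi-likelihood, -0.040 by likelihood ratio and -0.049 in DESeq2 (-0.40 to 0.464). Cebpg of F1-L against B6-O was -0.0097 by quasi-likelihood, -0.0098 by likelihood ratio, -0.139 without libraries above 5000 CPM and -0.027 without those above 3000 CPM (-0.072 to 0.129). Leaving out libraries above 5000 CPM, Cebpg was -0.047 in F1-L against F1-P LSK (-0.052 to 0.154) and -0.038 for the difference between strains. Cebpz was 0.018 with scaling without immunoglobulin genes in F1-L against F1-P LSK (-0.113 to 0.040), and 0.018 for the difference between strains without libraries above 3000 CPM. With each library left out, Cebpb ran from -0.704 to 0.066, Cebpd from -0.134 to 0.79, Cebpe from -0.121 to 1.7 and Cebpg from -0.148 to 0.011 in C57BL/6, and Cebpb from -0.444 to 0.034 and Cebpg from -0.182 to 0.020 in F1-P against B6-Y. Cebpe rested on the fewest reads of the 6 members, with 28 in its lowest LSK library, but its spread between libraries was far above counting error.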
